A study of Homo sapiens with 14 samples.

Results

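Metallothioneins and the genes that sense and export zinc were followed through drug treatment of a lung and a breast cancer line. The set holds 6 metallothionein genes (MT1E, MT1F, MT1G, MT1M, MT1X and MT2A), the metal-sensing transcription factor MTF1 and the zinc exporter SLC30A1. The members were taken by gene symbol, and these 8 genes are 8 of the 60683 gene identifiers that were counted in each library. The 6 metallothionein genes lie in a cluster on chromosome 16 (GRCh38, GENCODE release 44), from MT2A (ENSG00000125148) at chr16:56608584-56609497 to MT1X (ENSG00000187193) at chr16:56682470-56684196. Between them lie MT1E (chr16:56625475-56627112, ENSG00000169715), MT1M (chr16:56632659-56633981, ENSG00000205364), MT1F (chr16:56657731-56660698, ENSG00000198417) and MT1G (chr16:56666730-56668065, ENSG00000125144), of which MT1G is on the minus strand. MTF1 (ENSG00000188786, chr1:37809574-37859592) and SLC30A1 (ENSG00000170385, chr1:211571568-211579161) lie on the minus strand of chromosome 1.

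A549, a lung cancer line, was sequenced without treatment, after 10 days in 2 μM palbociclib, in 0.5 μM indisulam or in both drugs, and after 7 days in 0.5 μM PF-06873600. SUM159, a triple-negative breast cancer line, was sequenced without treatment and after 7 days in 0.5 μM PF-06873600. Palbociclib inhibits CDK4 and CDK6, PF-06873600 inhibits CDK2 as well, and indisulam leads to degradation of the splicing factor RBM39. Each of the 7 groups had 2 libraries, 14 in all, with 13060374 to 21149256 counts on genes (median 15335151). The duplicates may be technical, so p-values measure the spread between these libraries. Duplicates differed by more than counting noise, most of all the untreated ones, where chi-square over genes divided by its degrees of freedom was 10.5 in A549 and 9.99 in SUM159 against 1.66 to 5.47 in the treated groups. All comparisons with untreated cells rest on the untreated libraries, and the biological coefficient of variation of the A549 model was 0.0555 with both and 0.0384 when 1 of the 2 was left out, whichever it was. With only the compared groups fitted, that coefficient was 0.0806 for palbociclib and 0.0786 for indisulam against untreated. For the combination against palbociclib it was 0.0411. The shared spread is thus smaller than that of these untreated comparisons fitted alone. When the untreated cells were harvested is not given in the sources used here. Each line is a single established line. A549 was grown in RPMI and SUM159 in DMEM/F12 with insulin and hydrocortisone, so that line and medium cannot be told apart.

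Metallothioneins are small cysteine-rich proteins that bind zinc and copper and take up cadmium and other toxic metals. When free zinc rises, MTF1 binds metal response elements in front of its target genes, among them the metallothioneins and SLC30A1 (ZnT1), which pumps zinc out across the plasma membrane. MT2A is also induced by glucocorticoids.

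Untreated cells carried the markers of their labels in part. A549 had 156 CPM (a gene's counts per 1000000 counts on genes) of the epithelial cadherin CDH1, 19.4 of EPCAM and, of the epithelial keratins, 2126 of KRT8, 2521 of KRT18 and 982 of KRT7, but of the 4 alveolar markers SFTPB was at 0, SFTPC and NKX2-1 were near 0 and NAPSA was at 0.709 CPM. SUM159 had 4162 CPM of VIM, 930 of CD44 and 643 of AXL, which mark mesenchymal-like cells. Of the epithelial markers, CDH1 (0.0905 CPM) and EPCAM (0.641 CPM) were near 0 in SUM159, but the keratins were present, with KRT7 (1877 CPM) above its A549 level and KRT8 (417 CPM) and KRT18 (309 CPM) below theirs. Of the hormone receptors, PGR was at 0 and ESR1 at 0.182 CPM in SUM159, while ERBB2 was present at 120 CPM. In bulk RNA, fewer cells with a transcript and less of it in each cell cannot be told apart.

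The promoters of MT2A and MT1X were dense in the short core of the metal response element. The sequences are shown because MT2A and MT1X are the metallothioneins measured in both lines well above the limit of counting, with SLC30A1 for contrast. Promoters of 4 of the 8 members were found by symbol in RefSeq (GRCh38.p14): MT2A, MT1X, SLC30A1 and MTF1. MT1E, MT1F, MT1G and MT1M were not among them. The last 200 bases before the annotated start are printed 5′ to 3′ on the strand of the gene, and capitals mark matches to TGCACNC or TGCGCNC on either strand. They cover chr16:56608384-56608583 (plus strand) for MT2A, chr16:56682270-56682469 (plus strand) for MT1X and chr1:211579162-211579361 (minus strand) for SLC30A1.
MT2A: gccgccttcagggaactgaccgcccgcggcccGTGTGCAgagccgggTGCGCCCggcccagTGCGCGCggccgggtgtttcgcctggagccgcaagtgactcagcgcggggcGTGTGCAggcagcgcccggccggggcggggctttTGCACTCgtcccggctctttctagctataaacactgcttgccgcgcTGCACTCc
MT1X: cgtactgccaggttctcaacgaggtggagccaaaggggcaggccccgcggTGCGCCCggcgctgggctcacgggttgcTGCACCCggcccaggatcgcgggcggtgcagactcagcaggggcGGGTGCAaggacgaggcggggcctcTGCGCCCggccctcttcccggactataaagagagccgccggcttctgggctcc
SLC30A1: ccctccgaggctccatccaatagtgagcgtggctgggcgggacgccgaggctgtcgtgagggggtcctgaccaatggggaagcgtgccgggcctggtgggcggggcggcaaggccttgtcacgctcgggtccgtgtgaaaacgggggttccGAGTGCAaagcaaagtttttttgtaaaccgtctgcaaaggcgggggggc
Within 250 bases before the start, MT2A held 7 cores, MT1X 4, SLC30A1 1 and MTF1 0, and no matches overlapped each other. Of 35116 RefSeq promoters searched over the same length, 24.8% held at least 1 core, 0.37% at least 4 and 0.031% at least 7. With TGCACNC alone, which 9.87% of promoters held, MT2A had 5 cores, MT1X 2 and SLC30A1 1. A match to these letters is a description of the sequence and not a measured site.

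**Figure D1:**
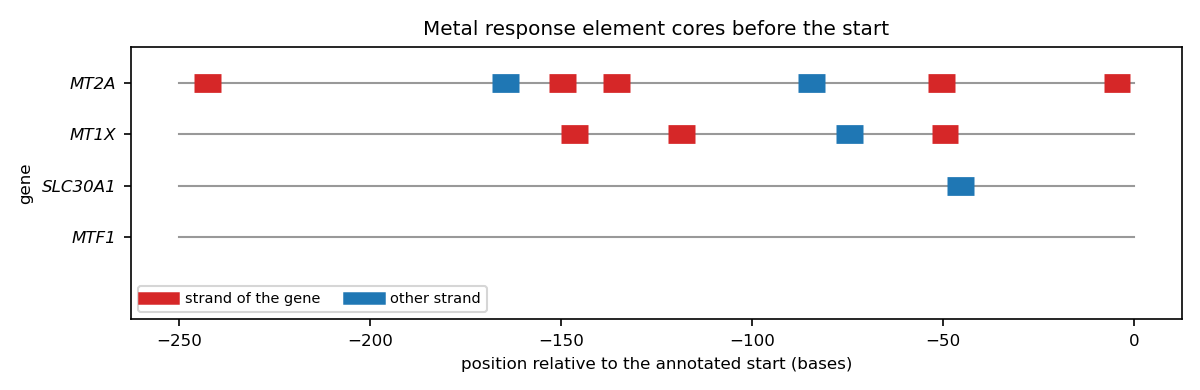
Positions of metal response element cores in the 250 bases before the annotated start of 4 genes. The horizontal axis is the distance from the start in bases, blocks are matches of 7 bases, and the color gives the strand. MT2A holds 7 cores, MT1X 4, SLC30A1 1 and MTF1 0.

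Metallothionein RNA was scarce in untreated A549 and abundant in untreated SUM159. MT2A had 1.97 and 1.33 CPM in the untreated A549 libraries, from 29 and 20 counts. In untreated SUM159 it had 799 and 727 CPM. The groups lay far apart, and the fitted log2 difference was 8.85 ± 0.12 (SE, edgeR's quasi-likelihood test in a model of all 14 libraries, adjusted p = 2.4e-21, n = 2 and 2). MT1E had no count in any of the 10 A549 libraries and 58.3 and 55.1 CPM in untreated SUM159. Set against 3 counts per library, the smallest level taken as measurable (0.142 to 0.23 CPM), MT1E was at least 281-fold higher in SUM159. MT1X had 0.952 and 0.8 CPM in A549 against 27.1 and 19.8 in SUM159, a log2 difference of 4.73 ± 0.23 (adjusted p = 4.2e-13 by the same test).

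MT1G and MT1F rested on few counts in A549. The untreated A549 libraries held 0 and 4 counts of MT1G, and the untreated SUM159 libraries 71 and 65. For MT1F these were 1 and 1 against 14 and 10 counts, a ratio scaled by depth of 10.95 with an exact 95% interval for counting error of 2.72 to 95.6. MT1M, a metallothionein of the same cluster, had no count in any library of either line. At 3 counts, this allows up to 0.23 CPM in the shallowest library.

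The zinc sensor and the exporter were also higher in SUM159. MTF1 had 21.9 and 20.1 CPM in untreated A549 and 38.5 and 39.1 CPM in untreated SUM159. SLC30A1 had 42.8 and 51.7 CPM in A549 and 90.1 and 87.1 CPM in SUM159. Neither gene's groups overlapped, with log2 differences of 0.89 ± 0.10 for MTF1 (adjusted p = 7.5e-08, edgeR's quasi-likelihood test) and 0.91 ± 0.08 for SLC30A1 (adjusted p = 2.0e-09). In this comparison 7 of the 7 members tested were higher in SUM159, beside 41.9% of all 17279 genes tested called higher and 36.8% called lower (7242 and 6365, against 6727 and 6848 with TMM scaling). MT1E, MT1F and MT1G passed the low-count filter of that model through groups other than untreated A549, so the count of 7 adds nothing to the values above.

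Per kilobase of exons, the order of the genes differed between the lines. In untreated SUM159 the level per kilobase was highest for MT2A (835 CPM per kb), followed by MT1E (53.9), SLC30A1 (15.0), MT1X (13.6), MT1G (5.56), MTF1 (4.86) and MT1F (0.397). SLC30A1 and MT1X were neighbors in this order whose difference lay within the spread of MT1X (SD 2.96 CPM per kb). In untreated A549 the level per kilobase was highest for SLC30A1 (8.02 CPM per kb), followed by MTF1 (2.63), MT2A (1.81), MT1X (0.507), MT1G (0.178) and MT1F (0.0363). MT1G and MT1F did not differ beyond the spread of MT1G (SD 0.251 CPM per kb). MT2A made up 89.7% of all metallothionein counts in untreated SUM159 and 40.2% in untreated A549.

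Of 15 other metallothionein genes and pseudogenes, MT1A had counts in all 10 A549 libraries and 1 count in the 4 SUM159 libraries together. It had 18 and 13 counts in untreated A549, a level of 2.64 ± 0.637 CPM per kb (SD, n = 2) beside 1.81 ± 0.494 for MT2A, and 0 counts in both untreated SUM159 libraries. MT1B, MT1H, MT1HL1, MT4, MT1CP and MT1IP had no count in any library, and MT3 had 1 count in all. MT1L, MT1DP, MT1JP, MT1P1, MT1XP1 and MT2P1 had at most 7 counts in any library. MT1P3, a processed pseudogene on chromosome 20, had 2 and 3 counts in untreated A549 and 10 and 17 in the combination. It passed the low-count filter of the A549 model through the combination libraries. In SUM159 its counts were higher, from 31 to 32 per untreated library and from 52 to 104 per library with PF-06873600. Of its 65-base windows, 23% are also in transcripts of MT1E, MT1JP, MT1L or ENSG00000291105, and it overlaps MMP24OS on the other strand, so that its reads are uncertain. Among the members, the share of windows found in transcripts of other genes was 16.1% for MT1X, 9.71% for MT1G, 4.04% for MT1M, 3.24% for MT1E and 1.06% for MT2A, against 0.278% for MTF1 and 0 for MT1F and SLC30A1. The MT1X share includes windows shared with ENSG00000259827, a gene with no count in any library. That gene overlaps MT1X on the same strand over 321 exon bases, and the effect of this overlap on the MT1X counts was not tested.

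**Figure D2:**
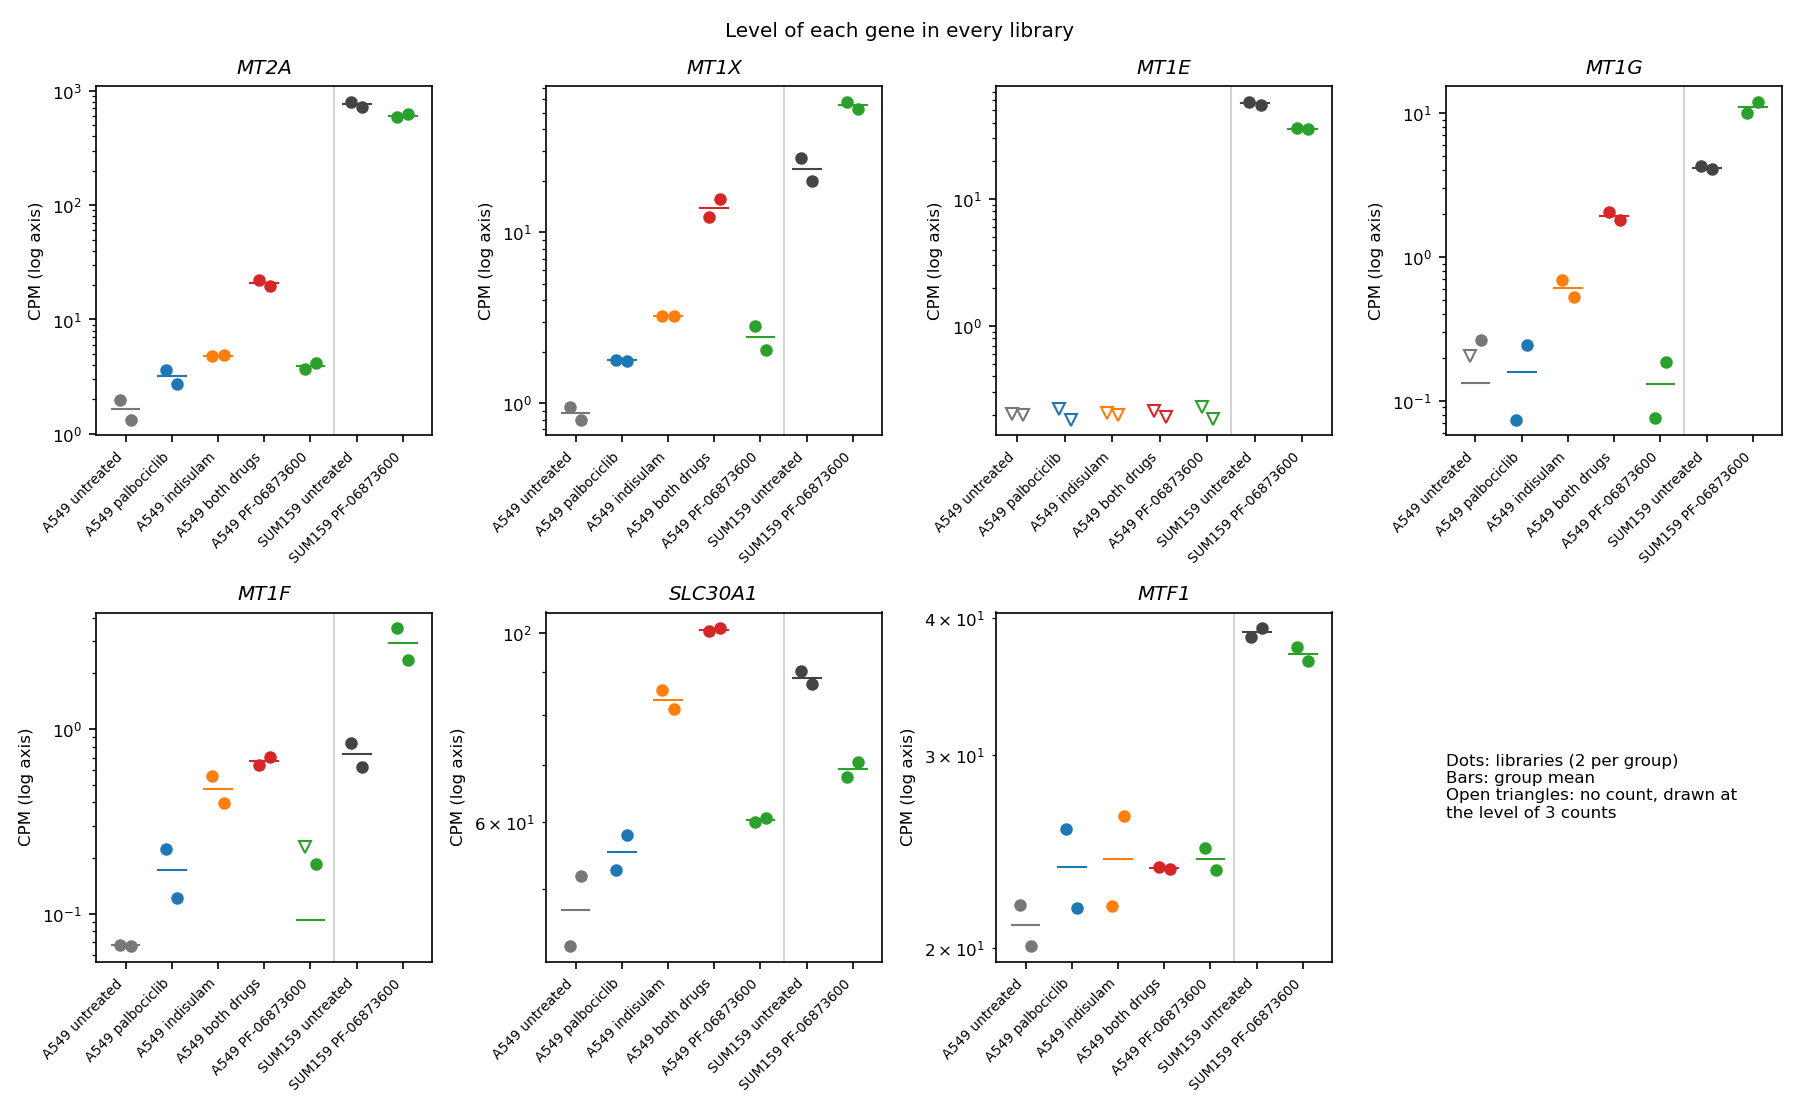
Level of 7 genes in each of the 14 libraries, in CPM on a log axis. Dots are libraries, bars are group means and open triangles are libraries with no count, drawn at the level of 3 counts. MT2A lay between 1.33 and 22.0 CPM in A549 and between 586 and 799 CPM in SUM159, and MT1E was at 0 in all 10 A549 libraries.

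Whether indisulam adds to palbociclib was the question of 4 A549 groups, untreated cells and those treated for 10 days. MT2A, MT1X and SLC30A1 all had their highest A549 level in the combination. MT2A had 3.64 and 2.75 CPM in palbociclib, 4.77 and 4.89 CPM in indisulam and 22.0 and 19.8 CPM in the combination. The groups did not overlap, and their order was untreated, palbociclib, indisulam and combination. The combination exceeded untreated cells by a log2 fold change of 3.65 ± 0.18 (12.6-fold, adjusted p = 3.3e-10, edgeR's quasi-likelihood test over the 10 A549 libraries). Indisulam alone gave 1.55 ± 0.23 (adjusted p = 7.4e-05) and palbociclib alone 0.93 ± 0.25 (adjusted p = 0.019).

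MT1X followed the same order. It had 1.78 and 1.77 CPM in palbociclib, 3.25 and 3.24 CPM in indisulam and 12.3 and 15.6 CPM in the combination. Both combination libraries stood above every other A549 library. Log2 fold changes against untreated were 1.01 ± 0.32 in palbociclib (adjusted p = 0.048 by edgeR's quasi-likelihood test), 1.88 ± 0.29 in indisulam (adjusted p = 1.1e-04) and 3.99 ± 0.23 in the combination (adjusted p = 1.3e-09). The palbociclib call of MT1X was lost without untreated replicate 1 (adjusted p = 0.071, edgeR) or 2 (0.16) and without palbociclib replicate 1 (0.14) or 2 (0.16). That of MT2A was lost without untreated replicate 2 (log2 fold change 0.68) and without palbociclib replicate 1 (0.73). Both palbociclib calls were lost when only the compared groups were fitted.

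MT1G and MT1F, at the edge of detection in A549, had most counts in the combination. The combination libraries held 29 and 28 counts of MT1G, the indisulam libraries 10 and 8, the palbociclib libraries 1 and 4. Against the 0 and 4 counts in untreated cells, the combination gave a ratio of 14.3 with an exact interval for counting error of 5.28 to 54.2. MT1G was called in the combination (log2 fold change 3.76 ± 0.60, adjusted p = 6.6e-05, edgeR's quasi-likelihood test), but it passed the low-count filter through these 2 libraries. The change was 2.81 without untreated replicate 1 and 7.84 without untreated replicate 2. Its call in indisulam (2.11 ± 0.77, adjusted p = 0.036) was lost without untreated replicate 1 (1.16), without either indisulam library and with DESeq2 (adjusted p = 0.12), and the change was 6.19 without untreated replicate 2. MT1F had 9 and 11 counts in the combination, 8 and 6 in indisulam, 3 and 2 in palbociclib and 1 and 1 in untreated cells, and did not pass the filter. Its ratio of combination to untreated was 10.0 (2.44 to 88.5).

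The exporter SLC30A1 rose with indisulam and, by less, with palbociclib added to it. It had 52.6 and 57.8 CPM in palbociclib, 85.6 and 81.3 CPM in indisulam and 100.5 and 101.2 CPM in the combination. The 4 groups did not overlap, though the untreated libraries at 42.8 and 51.7 CPM were spread widely. Against indisulam, the combination was higher by a log2 fold change of 0.27 ± 0.08 (adjusted p = 0.011, edgeR's quasi-likelihood test). This call was lost in most fits that left out 1 library of either group, while the change stayed at 0.24 to 0.31 under the alternatives run. Log2 fold changes against untreated were 0.82 ± 0.08 in indisulam (adjusted p = 2.1e-06, edgeR's quasi-likelihood test) and 1.09 ± 0.08 in the combination (adjusted p = 2.7e-08). Palbociclib alone gave 0.23 ± 0.09 and did not pass (adjusted p = 0.093), except without untreated replicate 2, when it gave 0.37 (adjusted p = 0.0028).

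MTF1 itself was not called in any A549 comparison. It had 25.7 and 21.7 CPM in palbociclib, 21.8 and 26.4 CPM in indisulam and 23.7 and 23.6 CPM in the combination. The combination libraries lay inside the ranges of both single drugs. The log2 fold change of the combination against untreated was 0.17 ± 0.11, with an interval of 2 SE from -0.05 to 0.39 (adjusted p = 0.18, edgeR's quasi-likelihood test). Against palbociclib it was 0.0023 ± 0.11, a value whose sign changed with TMM scaling and with DESeq2.

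Counts of members called are set against the share of all genes. With palbociclib, 2 of 5 members tested were called higher and 0 lower, where 8.3% and 7.4% of the 15780 genes tested were called. With indisulam, 4 of 5 were called higher and 0 lower, beside 28% and 17.5% of genes. TMM scaling moved that split of all genes from 4420 higher and 2757 lower to 3613 and 3558. With the combination, 4 of 5 were higher and 0 lower, beside 35.1% and 30% of genes. TMM turned that split too, from 5544 higher and 4739 lower to 4908 and 5397. MT1G is among the 4 in both cases, and without it 3 of 4 were called. In the combination the median log2 fold change of these 4 was 2.37, and that of all genes 0.05.

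**Figure D3:**
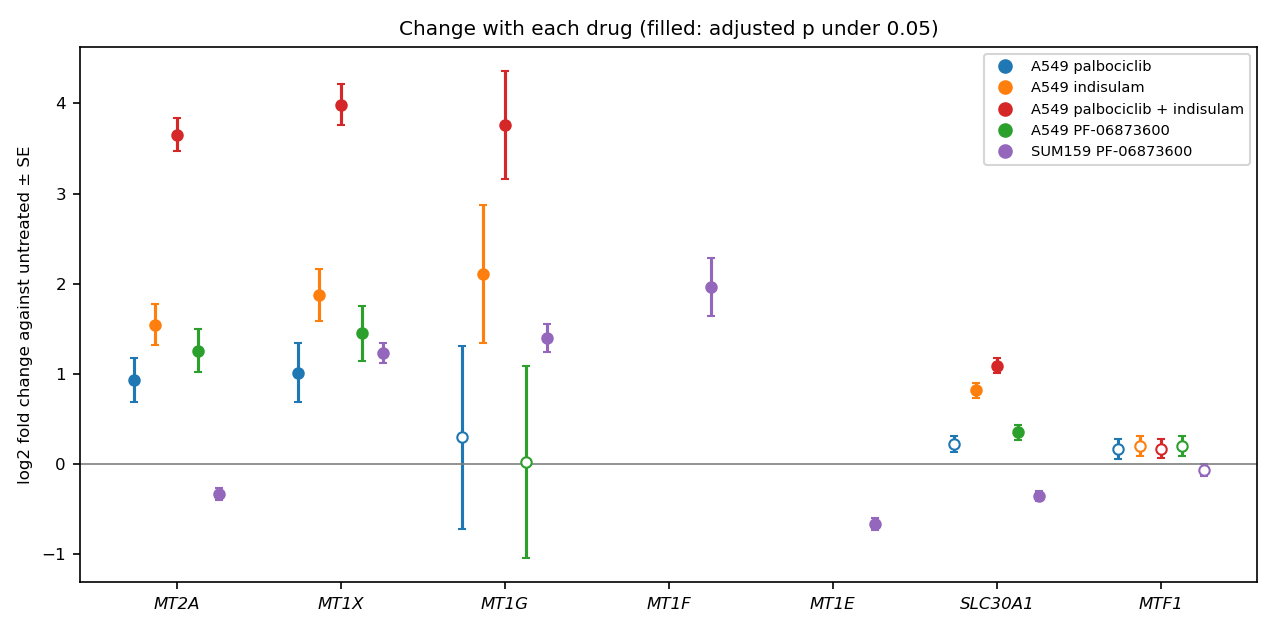
Log2 fold change against untreated cells of the same line, with bars of 1 SE, for 7 genes and 5 treatments. Filled symbols passed an adjusted p of 0.05. In A549 the combination gave 3.65 for MT2A, 3.99 for MT1X and 1.09 for SLC30A1, and in SUM159 PF-06873600 gave 1.23 for MT1X and -0.33 for MT2A.

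MT2A, MT1X and SLC30A1 were higher in the combination than in either single drug. MT1G was also called in both comparisons, which makes 4 of 5 members higher and 0 lower, but it entered the model through the combination libraries, and without it 3 of 4 were called. Against palbociclib, the combination was higher by 2.72 ± 0.16 on the log2 scale for MT2A, 2.97 ± 0.20 for MT1X, 3.46 ± 0.57 for MT1G and 0.87 ± 0.08 for SLC30A1 (largest adjusted p = 1.1e-04, edgeR's quasi-likelihood test). The MT1G change was 2.94 without palbociclib replicate 1 and 4.55 without palbociclib replicate 2. Of all genes, 33.5% were called higher and 26.9% lower (5279 and 4250, against 4542 and 5067 with TMM scaling). Against indisulam, the combination was higher by 2.11 ± 0.15 for MT2A, 2.11 ± 0.18 for MT1X, 1.65 ± 0.44 for MT1G and 0.27 ± 0.08 for SLC30A1, where adjusted p was 0.011 for SLC30A1 and 0.0064 for MT1G. Here 22% of genes were called higher and 23.9% lower. The SLC30A1 call was lost in 3 of 4 fits that each left out 1 library of these groups: without indisulam replicate 2, combination replicate 1 or combination replicate 2 (adjusted p of 0.089, 0.056 and 0.068). The MT1G call was lost without indisulam replicate 2, without combination replicate 1 and with DESeq2 (adjusted p = 0.095).

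MT2A exceeded the sum of its single-drug changes. The interaction term, the change in the combination beyond the sum of the palbociclib and indisulam changes on the log2 scale, was 1.17 ± 0.30 for MT2A (adjusted p = 0.011, edgeR's quasi-likelihood test). It was 1.09 ± 0.39 for MT1X, which did not pass (adjusted p = 0.057). For SLC30A1 it was 0.05 ± 0.12, with an interval of 2 SE from -0.18 to 0.28, and for MTF1 -0.20 ± 0.16. MT1G gave 1.35 with an interval of 2 SE from -1.04 to 3.75. So 1 of 5 members was called higher and 0 lower, beside 10.7% and 14.5% of all genes. Without untreated replicate 1 the MT2A term was 0.87 (adjusted p = 0.11), and without palbociclib replicate 2 it was 0.97 (adjusted p = 0.0503). Without combination replicate 1 the MT1X term passed, at 1.25 (adjusted p = 0.039).

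The zinc importer SLC39A10 moved against the metallothioneins in the combination. SLC39A10 (ZIP10) brings zinc in across the plasma membrane, and MTF1 is known to repress it when zinc is plentiful. It had 151 and 179 CPM in untreated cells, 166 and 168 CPM in palbociclib, 236 and 249 CPM in indisulam and 73.9 and 78.6 CPM in the combination. The combination libraries were the lowest of all A549 libraries and the indisulam libraries the highest. Against untreated, the log2 fold change was 0.56 ± 0.07 in indisulam (adjusted p = 2.2e-05, edgeR's quasi-likelihood test) and -1.11 ± 0.08 in the combination (adjusted p = 9.1e-09). The interaction was -1.69 ± 0.10 (adjusted p = 4.4e-08).

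**Figure D4:**
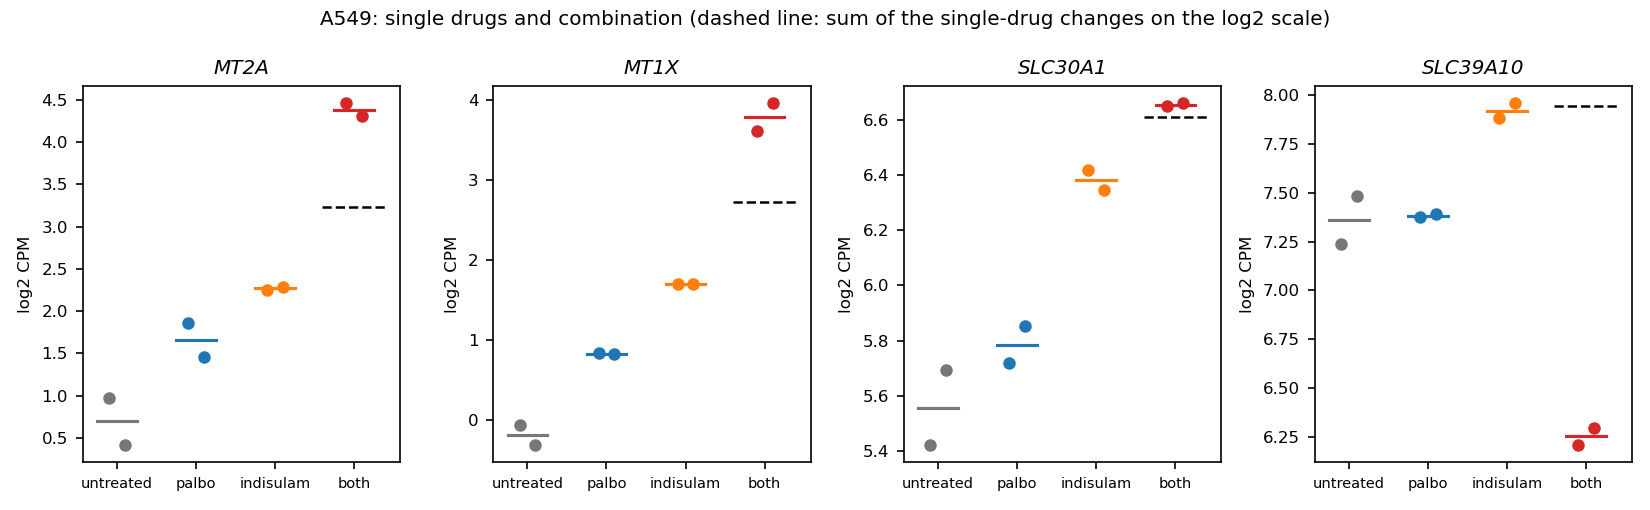
Level of 4 genes in the A549 groups treated for 10 days and in untreated cells, as log2 CPM. Dots are libraries, solid bars are means and dashed bars give the level at the sum of the single-drug changes. MT2A and MT1X lie above the dashed bar (interaction 1.17 and 1.09), SLC30A1 is near it (0.05) and SLC39A10 is below it (-1.69).

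Other zinc transporters showed no common direction in A549. Of 9 exporters of the SLC30 family besides SLC30A1, 6 were tested with the combination against untreated, of which 2 rose and 3 fell, where 35.1% of all genes were called higher and 30% lower. SLC30A3, which rose and is named after its values were seen, passed the low-count filter through libraries with indisulam, and without it 1 rose and 3 fell of 5. Those that fell were SLC30A5 (log2 fold change -0.43 ± 0.07), SLC30A7 (-0.43 ± 0.07), which load zinc into the secretory pathway, and SLC30A9 (-0.28 ± 0.08). Of 14 importers of the SLC39 family, 11 were tested, of which 5 rose and 3 fell (edgeR's quasi-likelihood test at an adjusted p of 0.05). SLC39A1, which rose and is also named after its values were seen, passed the filter through the combination and PF-06873600 libraries, and without it 4 rose and 3 fell of 10. SLC39A13, an intracellular transporter, rose from 30.5 to 55.2 CPM (0.86 ± 0.12) and SLC39A6 from 54.9 to 82.2 CPM (0.58 ± 0.07). Median log2 fold changes were -0.28 for the exporters without SLC30A3 and -0.05 for the importers without SLC39A1, beside 0.05 for all genes.

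Genes of iron and oxidative stress moved in both directions alongside. With the combination, 35.1% of all genes were called higher and 30% lower. Of 9 iron genes tested, 5 rose and 2 fell. STEAP3, which reduces iron in endosomes, went from 45.5 to 132 CPM (log2 fold change 1.53 ± 0.08), and the transferrin receptor TFRC from 153 to 248 CPM (0.70 ± 0.07). Of 9 genes of metal and oxidative stress, 3 rose and 5 fell (edgeR's quasi-likelihood test). HMOX1, heme oxygenase, rose from 16.4 and 14.4 CPM to 89.6 and 79.6 CPM, a change of 2.45 ± 0.10, whereas the cystine transporter SLC7A11 fell by 2.00 ± 0.07. Of 12 copper genes, 2 rose and 5 fell, with the copper-carrying ferroxidase CP at -0.73 ± 0.05 the lowest of the 12.

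Markers of other cell types moved with treatment in A549. Of 3 fibroblast markers, COL1A1 was the most abundant in all 10 libraries, and COL1A2 and PDGFRA were near 0. Their summed level was 2.04 and 1.93 CPM in untreated cells, 3.49 and 4.15 in palbociclib, 20.7 and 19.9 in indisulam, 73.9 and 73.8 in the combination and 9.80 and 8.41 in PF-06873600. Between untreated cells and the combination, the 3 mesenchymal markers were higher in mean level, VIM at 665 and 1767 CPM, AXL at 44.02 and 136 CPM and CD44 at 629 and 1252 CPM. Of the 5 epithelial markers, the keratins KRT8 (2126 and 5004 CPM), KRT18 (2521 and 4491 CPM) and KRT7 (982 and 3229 CPM) were higher, and CDH1 (156 and 128 CPM) and EPCAM (19.4 and 14.5 CPM) lower. The epithelial list summed to 6236 and 5371 CPM in the untreated libraries and 13140 and 12592 CPM in the combination libraries. The part of these markers in the metallothionein result was not tested. The 4 alveolar markers, NAPSA the most abundant, summed to 1.09 and 0.733 CPM in the untreated libraries and 4.18 and 3.99 CPM in the combination libraries. CD3E was at 0 in every library. Blood markers summed to at most 1.36 CPM and endothelial markers to at most 1.60 CPM in any A549 library.

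PF-06873600, which adds CDK2 to the kinases blocked, raised MT2A, MT1X and SLC30A1 in A549. MT2A had 3.68 and 4.204 CPM, MT1X 2.83 and 2.04 CPM, and SLC30A1 59.95 and 60.7 CPM. All lay above the untreated libraries and below both combination libraries. Against untreated, log2 fold changes were 1.26 ± 0.24 for MT2A (adjusted p = 3.8e-04, edgeR's quasi-likelihood test), 1.45 ± 0.31 for MT1X (adjusted p = 0.0010) and 0.35 ± 0.08 for SLC30A1 (adjusted p = 0.0027). MTF1, at 24.6 and 23.6 CPM, did not pass (0.20 ± 0.11, adjusted p = 0.14). MT1G (1 and 3 counts) and MT1F (0 and 3 counts) were at or under 3 counts in each library. In all, 3 of 5 members were called higher and 0 lower, beside 28.5% and 27.8% of genes.

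Palbociclib at 2 μM for 10 days and PF-06873600 at 0.5 μM for 7 days differ in dose and time, so their values are given side by side. Both share the untreated libraries. For MT2A the log2 fold changes were 0.93 and 1.26, for MT1X 1.01 and 1.45, for SLC30A1 0.23 and 0.35 and for MTF1 0.17 and 0.20.

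In SUM159, PF-06873600 split the metallothioneins. MT1X rose from 27.1 and 19.8 CPM to 58.0 and 52.7 CPM, a log2 fold change of 1.23 ± 0.11 (adjusted p = 6.6e-08, edgeR's quasi-likelihood test over the 4 SUM159 libraries). MT1G rose from 4.28 and 4.07 CPM to 9.94 and 11.96 CPM, by 1.40 ± 0.16 (adjusted p = 1.2e-06). MT1F, from 14 and 10 to 60 and 50 counts, gave 1.96 ± 0.32 (adjusted p = 6.7e-05). For each of these genes both treated libraries stood above both untreated ones.

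MT1E and MT2A, the metallothioneins with the highest levels per kilobase in SUM159, fell. MT1E went from 58.3 and 55.1 CPM to 36.4 and 35.5 CPM, a log2 fold change of -0.66 ± 0.07 (adjusted p = 3.9e-07, edgeR's quasi-likelihood test). MT2A went from 799 and 727 CPM to 586 and 624 CPM, or -0.33 ± 0.07 (adjusted p = 4.2e-04). The sum over the metallothionein genes and pseudogenes, which was not tested, had a mean of 851 ± 58.5 CPM before and 715 ± 24.2 CPM after (SD, n = 2), and the MT2A share of it was 89.7% and 84.6%.

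SLC30A1 fell as well, whereas MTF1 did not pass the test. SLC30A1 went from 90.1 and 87.1 CPM to 67.75 and 70.5 CPM, a change of -0.36 ± 0.06 (adjusted p = 4.5e-05, edgeR's quasi-likelihood test). MTF1 had 38.5 and 39.1 CPM before and 37.7 and 36.5 CPM after, with a log2 fold change of -0.07 ± 0.07 and an interval of 2 SE from -0.20 to 0.07 (adjusted p = 0.40). Of 7 members tested, 3 were called higher and 3 lower, while 38.1% and 35.6% of all 15055 genes tested were called. Both shares are near that background.

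More zinc importers rose than fell in SUM159. Of 11 tested, 8 rose and 2 fell, beside 38.1% and 35.6% of all genes, with a median log2 fold change of 0.59 beside 0.02 for all genes. SLC39A8 (ZIP8), which imports zinc, manganese and cadmium, went from 79.3 and 74.5 CPM to 270 and 282 CPM, a change of 1.84 ± 0.06 (adjusted p = 1.2e-12, edgeR's quasi-likelihood test). In A549 the same drug took SLC39A8 from 36.2 and 35.9 CPM to 81.3 and 85.2 CPM (1.21 ± 0.07, adjusted p = 2.3e-09). SLC39A10 fell in SUM159, from a mean of 113 to 83.6 CPM (-0.44 ± 0.06), and rose with the same drug in A549 (0.28 ± 0.07), a difference of -0.71 ± 0.10 (adjusted p = 1.1e-05, edgeR's quasi-likelihood test). SLC39A11 went the other way, up in SUM159 (1.18 ± 0.09) and down in A549 (-0.72 ± 0.09). Its difference was 1.90 ± 0.12 (adjusted p = 2.3e-10 by the same test). Of 6 exporters other than SLC30A1, 2 rose and 0 fell. Of 8 iron genes tested, 7 rose and 1 fell, led by the ferritin heavy chain FTH1 at 1.49 ± 0.09. Of 12 copper genes 7 rose and 3 fell. CP had the largest copper change, from a mean of 0.770 to 34.4 CPM (5.47 ± 0.18, adjusted p = 1.5e-12, edgeR's quasi-likelihood test). Of 8 stress genes, 1 rose and 7 fell, among them HMOX1 (-0.76 ± 0.06) and HSPA1B (-1.19 ± 0.08), a heat shock gene whose reads are uncertain because HSPA1A is a near-identical copy.

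**Figure D5:**
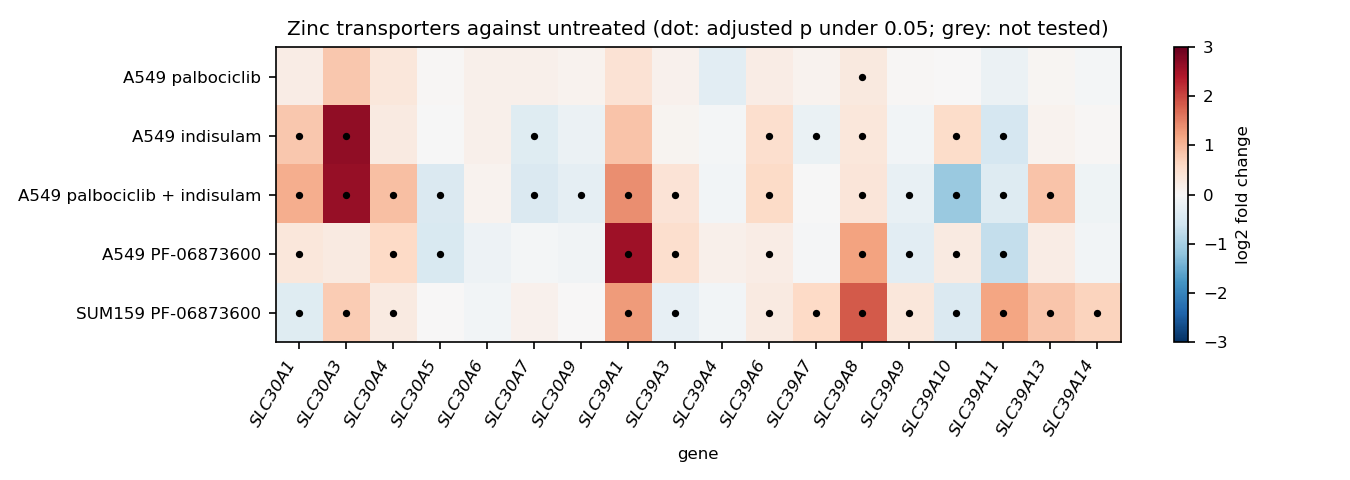
Log2 fold change of zinc transporters against untreated cells of the same line, one column per gene and one row per treatment. Dots mark an adjusted p under 0.05 and grey cells were not tested. SLC39A8 is higher with PF-06873600 in both lines (1.21 and 1.84), and SLC39A10 is lower with the combination (-1.11).

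The response to PF-06873600 differed between the lines for MT2A and SLC30A1. In the model of both lines, the SUM159 change minus the A549 change was -1.60 ± 0.23 on the log2 scale for MT2A (adjusted p = 1.1e-05, edgeR's quasi-likelihood test) and -0.71 ± 0.11 for SLC30A1 (adjusted p = 1.5e-05). For MT1X, which rose in both lines, it was -0.21 ± 0.38 with an interval of 2 SE from -0.98 to 0.56 (adjusted p = 0.69). MTF1 gave -0.26 ± 0.13 (adjusted p = 0.11). MT1G and MT1F had too few A549 counts for a narrow estimate, and for MT1E, at 0 in A549, none was made. Of 6 members, 0 were called higher and 2 lower, beside 25.8% and 27.2% of genes. Marker lists of several cell types moved with the drug in SUM159. The 5 epithelial markers, KRT7 the most abundant, summed to 2676 and 2532 CPM before and 1139 and 1175 CPM after treatment. Among them CDH1 was called higher (edgeR's quasi-likelihood test), but it passed the low-count filter through the treated libraries. Without it, 0 of 4 were called higher and 3 lower. The 3 mesenchymal markers, VIM the most abundant, summed to 5945 and 5525 CPM before and 5285 and 5257 CPM after. VIM alone went from 4318 and 4006 to 3609 and 3610 CPM, so this sum does not show the course of AXL and CD44. The 3 fibroblast markers, COL1A1 the most abundant, summed to 1674 and 1769 CPM before and 3476 and 3608 CPM after treatment. The 3 blood markers, PTPRC the most abundant and CD3E at 0, summed to 9.53 and 9.96 CPM before and 20.4 and 18.1 CPM after. The 2 endothelial markers, PECAM1 the most abundant and CDH5 at 0 before treatment, summed to 10.9 and 11.5 CPM before and 26.4 and 28.6 CPM after. Their part in the result was not tested.

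Genes known to be induced by glucocorticoids were high in SUM159, whose medium held hydrocortisone. All 7 of the list were called higher in untreated SUM159 than in untreated A549, beside 41.9% of all genes called higher and 36.8% lower. ZBTB16 passed the low-count filter through the SUM159 libraries, and without it 6 of 6 were called. FKBP5, a chaperone of the glucocorticoid receptor, had 800 and 753 CPM in SUM159 and 46.1 and 49.4 CPM in A549 (log2 difference 4.02 ± 0.06, adjusted p = 2.5e-20, edgeR's quasi-likelihood test). PER1 differed by 4.09 ± 0.11 and KLF9 by 4.03 ± 0.14, and ZBTB16 had no count in untreated A549 against a mean of 84.4 CPM. The receptor NR3C1 was lower in SUM159, at 128 against 243 CPM (-0.92 ± 0.08). The median difference was 3.395 for the 6 genes without ZBTB16 and 0.08 for all genes. The part of hydrocortisone in the metallothionein levels was not tested. Under PF-06873600 in SUM159, 4 of the 7 fell and 1 rose, beside 35.6% and 38.1% of all genes, with PER1 at -0.84 ± 0.07 and SGK1 at -0.31 ± 0.07. In the A549 combination FKBP5 fell by 1.65 ± 0.09 on the log2 scale while SGK1 rose by 2.22 ± 0.12, and of 6 tested 3 rose and 2 fell, beside 35.1% and 30% of all genes.

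The genes whose pattern over the 10 A549 libraries was most like that of MT2A were taken by Pearson's r of log2(CPM + 1) among 2564 genes with a mean of at least 10 CPM and a range of at least 1 on that scale. PDXK, the kinase that activates vitamin B6, was nearest to MT2A (r = 0.991) and the third for MT1X (r = 0.988). It had means of 195 CPM in untreated cells, 263 in palbociclib, 315 in indisulam, 556 in the combination and 274 in PF-06873600. Next to MT2A came TNS1 (r = 0.985), the actin-binding TAGLN (r = 0.982), SDC3 and LOXL4, and nearest to MT1X came AJUBA (r = 0.993) and CALD1 (r = 0.988). For SLC30A1 they were SRGAP2 (r = 0.989), GDA (r = 0.985), HEG1, TRIM69 and KIRREL1, with levels in the order untreated, palbociclib, PF-06873600, indisulam and combination. These correlations describe 10 libraries in 5 groups that share depth and treatment, and they carry no test.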

How the data were processed

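Stranded, polyadenylated RNA was read as single ends of 65 bases. Per the labels, the authors aligned reads with HISAT2 2.2.1 to GRCh38 and counted them per gene with HTSeq, and they deposited raw counts per gene for each of 14 libraries. The strand setting of the counting is not given in the sources used here. Of reads, 3.06 to 3.56% were ambiguous and 8.71 to 11.1% had low mapping quality, and these and the other summary lines were left out. Identifiers were named from GENCODE release 44 (60370 of 60683 matched).

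Genes were kept by filterByExpr and tested with the quasi-likelihood test of edgeR 4.0.16 in R 4.3.3, scaled by total counts, in models of the 10 A549, the 4 SUM159 or all 14 libraries, with Benjamini-Hochberg adjusted p and a threshold of 0.05. Intervals of count ratios (95%, exact) and the limit of 3 counts (0.142 to 0.23 CPM) cover counting error only. An exact permutation test of 2 against 2 libraries cannot go below p = 0.33. Alternatives were TMM scaling, DESeq2 1.42.0, other filters, a replicate block, fits of only the compared groups and each library left out. Motifs and correlations used Python 3.11.15, numpy 2.4.6, pandas 2.3.3 and scipy 1.17.1, and plots matplotlib 3.10.9.

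The members and gene lists were chosen with earlier results of these data known. Members are named throughout. From each list, up to 4 called genes with the largest change could be named, provided their group mean reached 10 CPM on the higher side, and all other metallothioneins with a count.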

Additional observations from a re-analysis of the deposited data

Results flagged for a closer look

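The response to PF-06873600 differed between the lines for MT2A and SLC30A1, by a test of the difference itself (interaction term, edgeR's quasi-likelihood test). The SUM159 minus A549 difference in log2 fold change was -1.60 for MT2A (adjusted p = 1.1e-05), which rose in both treated A549 libraries and fell in both treated SUM159 libraries. It was -0.71 for SLC30A1 (adjusted p = 1.5e-05), with the same directions. The MT2A levels were far apart, with means from 1.65 to 3.94 CPM in A549 and from 763 to 605 CPM in SUM159. Line and medium cannot be told apart here. Both changes are against untreated duplicates that differed more from each other than those of any treated group.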

How the results depend on the processing

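Of 570 alternative values for 55 log2 fold changes of the members, 529 kept their direction and side of the threshold, 22 lost a call, 3 gained one and 16 changed sign, none of the last being called. The combination against untreated, PF-06873600 in A549 and PF-06873600 in SUM159 kept the calls of MT2A, MT1X and SLC30A1 under every alternative run. With palbociclib, the 2 members called higher became 1 with DESeq2 and 0 when only the compared groups were fitted (MT2A adjusted p = 0.10), and 0 to 1 with a library left out. The 4 called for the combination against indisulam became 2 to 4 with a library left out, and the 1 called for the interaction became 2 with a mean of at least 50 counts and 0 to 2 with a library left out. Sign changes among values not called were, with a library left out, MT1G at -0.79 to 4.38 in palbociclib, -0.92 to 4.10 in PF-06873600, -2.73 to 2.44 for the interaction and -2.79 to 2.32 for the difference between lines. They were -0.10 to 0.18 for the SLC30A1 interaction and -0.45 to 0.0301 for MT1X between lines. MTF1 in the combination against palbociclib was -0.0905 with TMM, -0.0459 with DESeq2 and -0.12 to 0.12 with a library left out, and against indisulam 0.0055 with DESeq2 and -0.16 to 0.12 with a library left out. The cause was not tested. Among all genes, palbociclib called 1310 higher and 1168 lower, against 967 and 622 with DESeq2, 543 and 406 with only the compared groups, and 779 to 1729 and 522 to 1602 with a library left out. Indisulam called 4420 higher, against 2742 with DESeq2, and the interaction 2281 lower, against 1495. Per kilobase of the longest transcript, MT1E was at 76.0 and MT1G at 6.65 CPM in untreated SUM159.

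Replicate numbers are shared across groups, but the labels do not say that a number marks shared handling, and the numbers were not taken as pairs. Correlations of same-numbered deviations ran from -0.37 (palbociclib and indisulam) to 0.35 (untreated and indisulam). With the replicate block, 1 member was called higher in palbociclib, since MT1X missed the threshold, and all genes called there were 1258 higher and 1079 lower. With the palbociclib numbers crossed, chosen after seeing the data, they were 1556 and 1467. The block changed no other call of a member.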
